A study of Mus musculus with 3 samples.

Results

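The genes described are 10 transcription factors of the basic leucine zipper (bZIP) class: the FOS proteins Fos, Fosb and Fosl2, the JUN proteins Jun, Junb and Jund, the BATF proteins Batf, Batf2 and Batf3, and Atf3. They were chosen by name, as the 10 listed genes to which the array's annotation assigns probe sets of their own, out of 17886 genes that the annotation names. They are read by 13 probe sets out of 38533, where a probe set is a group of short oligonucleotides that together give 1 value. Fosl2, Jun and Jund have a pair of probe sets each and the other 7 genes have 1.

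The values come from 3 Affymetrix mouse arrays of dendritic cells (DCs), the cells that present antigen to T cells. Wild-type mouse bone marrow was kept in culture with GM-CSF, a growth factor for myeloid cells, for 5 days, and DCs were then sorted on PDL2, a surface ligand of the inhibitory receptor PD-1. The groups are PDL2-negative cells without treatment, PDL2-negative cells given lipopolysaccharide (LPS, a bacterial ligand of Toll-like receptor 4) at 100 ng/ml, and PDL2-positive cells without treatment. Strain, age, the number of mice and the length of the LPS treatment are not given in the sources used here. Each group has 1 array, so there is no spread between samples, no test between groups, and every difference is described by size only.

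AP-1 is a dimer of bZIP proteins, classically 1 from the FOS and 1 from the JUN side, that binds short DNA elements after mitogen, stress or Toll-like receptor signals. FOS genes are immediate early genes, with short-lived transcripts that appear soon after a signal. BATF proteins lack the transactivation domain of FOS, pair with JUN proteins, and in lymphocytes and DCs act with IRF4 or IRF8 on composite DNA elements. ATF3 is a stress-induced factor that is known to restrain several inflammatory genes in macrophages.

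Signals are log2 values after quantile normalization of the 3 arrays. The floor, 5.58, is the median of all normalized values, and lower signals were raised to it before differences were taken. A gene with several probe sets is represented by the 1 with the highest mean signal. Of the 10 genes, 9 were above the floor on all 3 arrays and Fosb was above it on 1. Genes differing by at least 2-fold, or 1 on the log2 scale, are called higher or lower. The only measure of error is technical: the robust SD of a single probe set's log2 difference, taken from genes with several probe sets, was 0.29 for LPS against no treatment (4230 genes), 0.21 for PDL2-positive against PDL2-negative untreated cells (4251 genes) and 0.31 for PDL2-positive against LPS-treated cells (4142 genes).

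Markers of the cultured cells were checked first. All 6 DC markers (Itgax, Flt3, Zbtb46, Cd74, H2-Ab1 and Ciita) were above the floor on all 3 arrays. They went both ways in PDL2-positive against PDL2-negative untreated cells. By log2 difference, Flt3 (1.89) and Zbtb46 (2.37) were higher, Itgax (-1.67) was lower, and Cd74, H2-Ab1 and Ciita were under 2-fold. Pdcd1lg2, which encodes PDL2, had signals of 8.40 without treatment and 9.44 after LPS in PDL2-negative cells, and of 11.73 in PDL2-positive cells. Below, 3 signals in a row always follow this order. The mean log2 signal of 7 macrophage markers was 12.12, 11.89 and 7.51 in that order, and all 7 were lower by at least 2-fold in PDL2-positive cells (median log2 difference -4.57). All 4 monocyte markers on the array were lower there too (median -3.38). The mean of 8 neutrophil and precursor markers was 9.69, 8.28 and 9.62, with 6 of the 8 lower after LPS. Of 7 lymphocyte and NK cell markers, 2, 2 and 1 were above the floor, and Cd3g, Ncr1 and Ms4a1 were below it on every array. The part of these cell markers in the differences below was not tested, and in bulk RNA fewer cells of a type and less RNA per cell cannot be told apart.

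The 250 bases before the annotated start are shown for Fos and Fosb, which had lower signals on both other arrays than in PDL2-negative untreated cells, and for Fosl2 and Batf3, whose signals differed most between the untreated groups in opposite directions. Sequences are from RefSeq on mouse build GRCm38.p6, which holds such a window for 9 of the 10 genes. They are written 5′ to 3′ on the gene's strand, and capitals mark matches to the motifs listed in the next paragraph. The Fos window is chr12:85473640-85473889 on the plus strand, that of Fosb chr7:19310046-19310295 on the minus strand, that of Fosl2 chr5:32136222-32136471 on the plus strand and that of Batf3 chr1:191098164-191098413 on the plus strand.
Fos: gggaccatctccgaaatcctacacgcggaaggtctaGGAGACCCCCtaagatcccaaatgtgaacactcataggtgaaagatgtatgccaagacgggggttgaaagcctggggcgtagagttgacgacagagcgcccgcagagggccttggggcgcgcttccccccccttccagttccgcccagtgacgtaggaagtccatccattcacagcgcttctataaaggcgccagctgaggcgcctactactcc
Fosb: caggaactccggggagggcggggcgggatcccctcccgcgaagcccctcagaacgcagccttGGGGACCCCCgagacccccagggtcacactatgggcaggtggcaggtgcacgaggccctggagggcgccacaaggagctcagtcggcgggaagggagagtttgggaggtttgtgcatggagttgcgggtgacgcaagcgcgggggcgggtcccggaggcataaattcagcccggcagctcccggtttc
Fosl2: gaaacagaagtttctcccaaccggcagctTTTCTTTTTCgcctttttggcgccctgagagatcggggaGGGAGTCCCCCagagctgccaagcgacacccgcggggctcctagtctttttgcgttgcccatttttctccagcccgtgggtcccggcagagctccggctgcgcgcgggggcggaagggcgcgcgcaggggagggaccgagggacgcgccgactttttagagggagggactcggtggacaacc
Batf3: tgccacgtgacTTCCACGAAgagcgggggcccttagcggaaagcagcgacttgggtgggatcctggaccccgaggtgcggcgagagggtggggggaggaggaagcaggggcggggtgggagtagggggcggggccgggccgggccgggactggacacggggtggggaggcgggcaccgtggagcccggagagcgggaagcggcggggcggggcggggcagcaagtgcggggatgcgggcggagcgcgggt

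The windows searched ran from 250 bases before to 50 after the start, and both strands were read. The motifs were the AP-1 site TGANTCA, the cyclic AMP response element TGACGTCA, the CArG box, the kappa B site, an interferon response core (GAAA, any 2 bases, then GAAA) and the STAT element TTCNNNGAA. The kappa B consensus matched in the windows of all 3 FOS genes, at 214 to 205 bases before the start of Fos, 188 to 179 before that of Fosb, and 182 to 172 before that of Fosl2, where matches on both strands overlap. It matched in none of the other 6 windows, and in 8.46% of 32851 windows of this length in the table. Fosl2 also held the interferon response core, 221 to 212 bases before the start (3.44% of windows), and Batf3 the STAT element, 239 to 231 bases before (8.30%). The AP-1 site, cyclic AMP element and CArG box matched in none of the 9 windows, against 7.81%, 1.79% and 1.63% of all windows. Only exact letters inside these windows were counted. Variant sites and sites further away are missed, so the lack of a match does not show the lack of a site. A match describes letters in a window and shows no binding, and the windows of Jun, Junb, Jund, Batf and Atf3 held none of these letters.

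**Figure D1:**
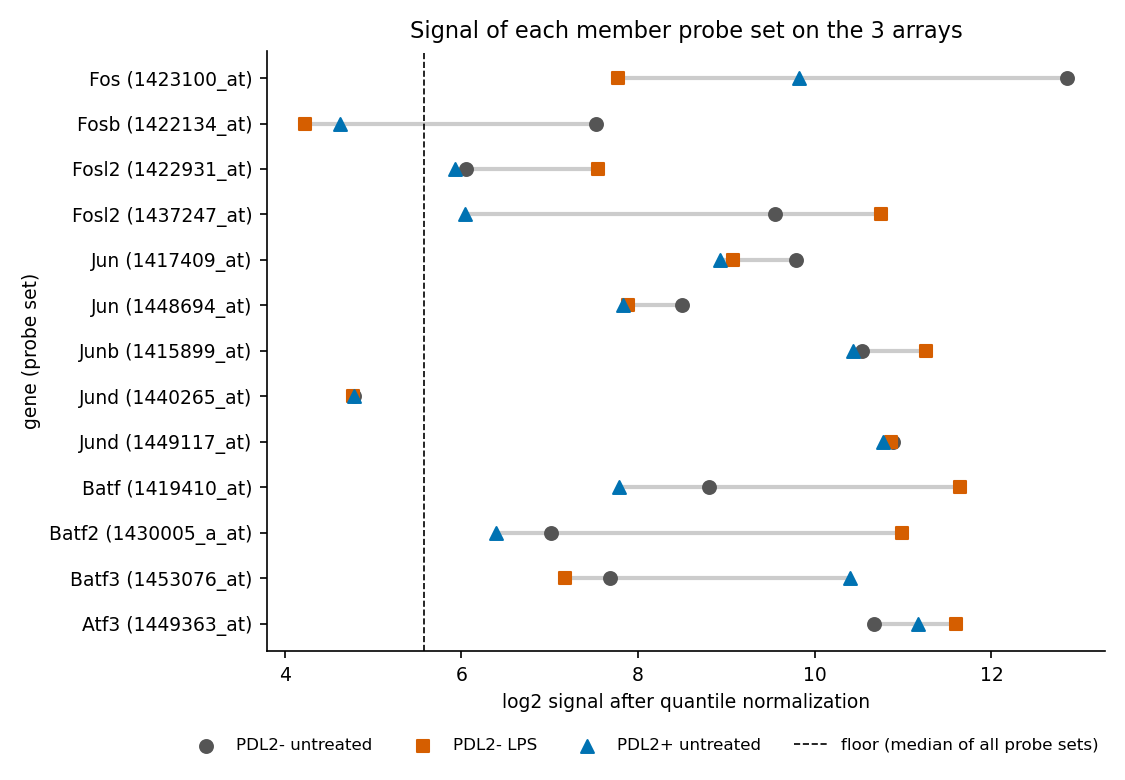
Log2 signal (horizontal axis) of each of the 13 probe sets (vertical axis) on the 3 arrays, 1 point per array; the dashed line is the floor at 5.58. Fos spans 5.08 log2 units with PDL2-negative untreated cells highest, Batf and Batf2 are highest after LPS, Batf3 is highest in PDL2-positive cells, and the brighter Jund probe set stays within 0.11.

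After LPS, 3 of the 10 genes were higher by at least 2-fold in PDL2-negative cells (Fosl2, Batf and Batf2) and 2 were lower (Fos and Fosb). Over all 11000 genes above the floor on 1 or both arrays, 9.17% were higher and 13.8% lower, 23.0% in all. The median log2 difference was 0.36 over the 10 genes and 0.02 over all genes tested. In untreated cells, PDL2-positive against PDL2-negative, 1 of the 10 was higher (Batf3) and 4 were lower (Fos, Fosb, Fosl2 and Batf). Of all 10926 genes tested, 10.1% were higher and 13.0% lower, 23.0% in all, and the medians were -0.74 over the 10 genes and 0.01 over all. Both comparisons use the same PDL2-negative untreated array, so an unusual value on it moves both in the same direction.

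When PDL2-positive untreated cells were set against LPS-treated PDL2-negative cells, 9 of the 10 genes were above the floor. Of these, 2 were higher (Fos and Batf3) and 3 lower (Fosl2, Batf and Batf2) in PDL2-positive cells. The background was 15.6% higher and 12.6% lower, 28.2% in all, of 11042 genes. Jun, Junb, Jund and Atf3 were under 2-fold in all 3 comparisons.

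**Figure D2:**
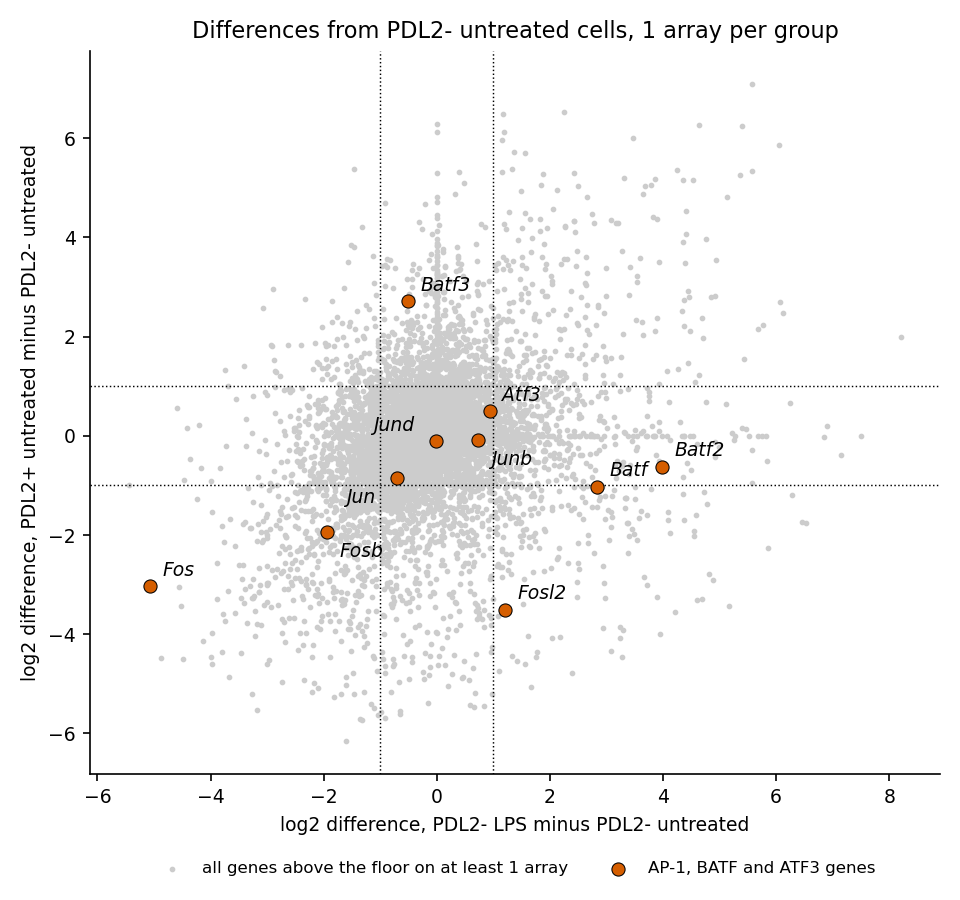
Each point is a gene, with its log2 difference after LPS on the horizontal axis and in PDL2-positive cells on the vertical axis, both against PDL2-negative untreated cells (1 array per group); dotted lines mark 2-fold. Fos and Fosb lie at lower left, Batf2 and Batf at right, Fosl2 at lower right and Batf3 at the top, while Jun, Junb, Jund and Atf3 lie inside the dotted lines.

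The FOS genes did not move together. Fos, whose product is the archetypal partner of JUN, had signals of 12.85, 7.78 and 9.82. It was highest in PDL2-negative untreated cells, where it lay 33.7-fold above the LPS array and 8.19-fold above the PDL2-positive array. The LPS difference of -5.08 was number 2 from the lowest of all 11000 genes tested, and the PDL2 difference of -3.03 was number 270 from the lowest of 10926. The array of PDL2-positive cells lay 4.12-fold above that of LPS-treated cells.

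Fosb, a FOS paralog that is also an immediate early gene, had signals of 7.53, 4.23 and 4.62. Only the first lies above the floor, so Fosb was at least 3.86-fold lower on each of the other arrays, and these 2 arrays cannot be ordered. With no floor its differences were -3.29 and -2.90.

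Fosl2, which encodes the FOS-related protein FRA-2, had signals of 9.55, 10.75 and 6.04 with its brighter probe set, 1437247_at. It was 2.30-fold higher after LPS and 11.3-fold lower in the PDL2-positive than in the PDL2-negative untreated sample, number 180 from the lowest of 10926. PDL2-positive cells lay 26.1-fold below LPS-treated cells, with a signal close to the floor. The other probe set, 1422931_at, gave 6.06, 7.55 and 5.93. That set showed the LPS difference too (1.49 against 1.20 with the brighter set) but a PDL2 difference of only -0.13 against -3.50, from untreated signals that were near the floor in both groups. Both sets were thus highest after LPS, and the PDL2 difference rests on the brighter set.

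No JUN gene passed 2-fold. Jun, the classical partner of FOS, had signals of 9.78, 9.07 and 8.93 with its brighter probe set and 8.50, 7.89 and 7.82 with the other. Both sets were highest in PDL2-negative untreated cells, with log2 differences of -0.71 and -0.61 after LPS and of -0.85 and -0.68 in PDL2-positive cells. These lie beyond the technical SD and under 2-fold. The LPS and PDL2-positive arrays differed by 0.14 and 0.06, less than that SD.

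Junb, a JUN protein that activates fewer targets than Jun, had signals of 10.53, 11.26 and 10.43. It was 1.66-fold higher after LPS, and the untreated arrays differed by 0.09, less than the technical SD. Jund, which is expressed in many resting cells, had signals of 10.88, 10.87 and 10.77 and was the member with the smallest range, 0.11. Its LPS difference of -0.02 turned to 0.02 with the deposited values and 0.05 with median centring. Its second probe set, 1440265_at, lay below the floor and held an identical deposited value of 4.78 on all 3 arrays, so it gives no order.

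Batf and Batf2 shared 1 order of the arrays, highest after LPS and lowest in PDL2-positive cells, while Batf3 was highest in PDL2-positive cells. Batf, which is needed for several T helper programmes and pairs with JUN and IRF proteins, had signals of 8.80, 11.64 and 7.78. It was 7.14-fold higher after LPS, and 14.5-fold lower in PDL2-positive than in LPS-treated cells. Its PDL2 difference of -1.03 is only just past 2-fold, and it was under 2-fold with the higher floor.

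Batf2, an interferon-inducible family member, had signals of 7.01, 10.99 and 6.39. The LPS array alone was high. Batf2 was 15.7-fold higher after LPS, number 94 from the highest of 11000 genes, and 24.2-fold lower in PDL2-positive than in LPS-treated cells. Between untreated cells it differed by -0.62, under 2-fold.

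Batf3, the factor needed for development of the cross-presenting type 1 conventional DC, ran the other way, with signals of 7.68, 7.17 and 10.39. Only the PDL2-positive array was high. It lay 6.54-fold above PDL2-negative untreated cells, number 240 from the highest of 10926 genes, and 9.31-fold above LPS-treated cells. After LPS the difference was -0.51, under 2-fold.

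Atf3 had signals of 10.67, 11.60 and 11.16. It was 1.91-fold higher after LPS, just under the size rule, and 1.41-fold higher in the PDL2-positive than in the PDL2-negative untreated sample. Untreated PDL2-negative cells were thus lowest for Atf3, while they were highest for Fos, Fosb and Jun.

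The position of the genes in the genome was compared with their values. By RefSeq order, Fos and Batf lie on chromosome 12 with 1 protein-coding gene between them, Jdp2, itself a bZIP gene whose product dimerizes with JUN and represses AP-1 sites. The 3 neighbours differed after LPS, with log2 differences of -5.08 for Fos, 3.94 for Jdp2 and 2.84 for Batf. In PDL2-positive cells the differences were -3.03, -0.50 and -1.03. Atf3 and Batf3 lie on chromosome 1 with 1 protein-coding gene between them, Fam71a, which was below the floor on every array. Junb and Jund share chromosome 8 with 163 protein-coding genes between them.

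For each of the 6 genes past 2-fold after LPS or in PDL2-positive cells, the 2 genes with the nearest pattern were found as the smallest Euclidean distance between pairs of log2 differences, over 3 arrays. Jdp2 was nearest to Batf2 (distance 0.13), with signals of 7.02, 10.96 and 6.52, followed by Ifih1, a cytosolic sensor of viral RNA (0.25). Jdp2 was among the nearest 2 of Batf2 in all 5 other settings of normalization, floor and probe sets. Batf was nearest to Parp12 (0.08), which encodes a mono-ADP-ribosyltransferase, and Rffl (0.09), which encodes a ubiquitin ligase. Another Rffl probe set gave 1.64 after LPS and -0.41 in PDL2-positive cells, against 2.93 and -1.04 with the set used.

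Fos was nearest to Zfp36l2 (0.53), an mRNA decay factor of the tristetraprolin family, and to Amz1 (0.68), so no other gene came as close to Fos as those named came to the BATF genes. Amz1 lay below the floor after LPS (5.42), and it was among the nearest 2 with no floor too. The probe sets of Zfp36l2 ran from -4.55 to 0.07 after LPS. Batf3 was nearest to Vhl (0.09), a ubiquitin ligase subunit that marks hypoxia-inducible factors for destruction, and Ttc39a (0.15). Fosl2 was nearest to Slamf8 (0.19) and the hexokinase gene Hk2 (0.30), neither of which was among its nearest 2 with deposited or median-centred values. Slamf8 lay below the floor in PDL2-positive cells (5.30) and was not among the nearest 2 with no floor. For Fosb, which was below the floor on 2 arrays, the floor sets the pattern. The rule then names Hpse and Dio2, but with no floor it names Hhex and Cerk, so no gene is taken as near to Fosb.

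Other bZIP genes were next compared, as factors that can pair with AP-1 proteins or share their DNA elements. After LPS, 25 of them were above the floor, with 4 higher and 4 lower (median 0.09). Jdp2 was higher by 3.94, Cebpd, which amplifies inflammatory transcription, by 1.53, the small MAF gene Mafg by 1.46 and the FOS paralog Fosl1 by at least 1.28, although another Fosl1 probe set gave 0.17. Nfe2 differed by -2.74, Cebpa by -1.61, the heme-regulated repressor gene Bach1 by -1.32 and Atf6 by -1.11. Another Atf6 probe set gave 0.65, and another Bach1 probe set gave -0.66, under 2-fold. Nfe2l2 was under 2-fold at 0.29, although another of its probe sets gave -2.33.

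In PDL2-positive cells 5 of 24 were higher and 8 lower than in PDL2-negative untreated cells (median -0.53). The higher genes were Crem (2.34), which encodes a cyclic AMP response modulator, Nfil3 (2.30), Nfe2l1 (1.72), Atf5 (1.32) and Creb1 (1.15). Among the lower genes were the macrophage factor gene Maf (-4.77), whose 5 probe sets ran to -0.23, Cebpb (-3.62) and Cebpd (-3.39). As with Fosl2, Cebpd was higher after LPS and lower in PDL2-positive cells. Against LPS-treated cells 4 of 25 were higher and 7 lower (median -0.18), from Crem at 2.40 to Cebpd at -4.92.

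**Figure D3:**
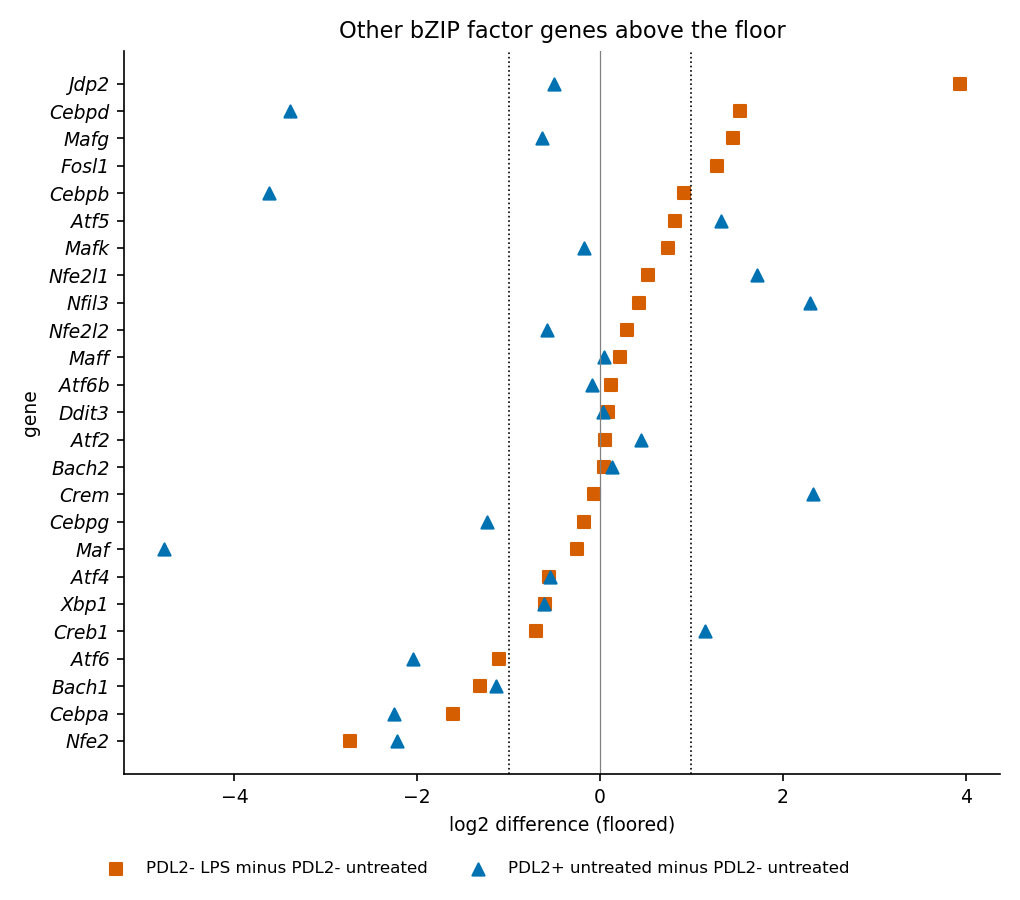
Log2 difference (horizontal axis) of 25 other bZIP genes (vertical axis, ordered by the LPS difference), with squares for LPS against no treatment and triangles for PDL2-positive against PDL2-negative untreated cells; dotted lines mark 2-fold, and a gene below the floor in a comparison has no point. Jdp2 is highest after LPS at 3.94, and Maf, Cebpb and Cebpd are lowest in PDL2-positive cells.

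Kinases and factors upstream of AP-1 were also compared. After LPS 3 of the 24 above the floor were higher and 6 lower (median -0.06), against 9.17% and 13.8% of all genes tested. Map3k8, which encodes the kinase that links Toll-like receptors to the ERK pathway, had signals of 7.55, 10.94 and 8.49 and was higher by 3.38, and its substrate gene Map2k1 was higher by 1.35. With averaged probe sets only 1 was lower, and other probe sets of Mapk14, Elk4 and Rps6ka3 gave differences above 0. In PDL2-positive cells 2 of 24 were higher, Rps6ka5 (3.51), which encodes a kinase of histone H3 and CREB, and Map3k1 (1.61), and 4 were lower (median -0.09). Mef2c, a factor that regulates the Jun promoter, was lower, at -2.08 after LPS and at -3.37 or below in PDL2-positive cells, and its other probe sets reached -0.18. Against LPS-treated cells Rps6ka5 was higher by at least 5.08 and Map3k5 differed by -3.43 or below. Srf, the factor that binds the CArG box with ELK proteins, differed by -0.56 after LPS and 0.67 in PDL2-positive cells. Its other probe set gave 0.69 and 0.13, so the LPS difference has no clear direction.

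Other immediate early genes and genes that respond to cell handling went both ways. After LPS 7 of 28 were higher and 6 lower (median 0.20), and in PDL2-positive cells 5 of 27 were higher and 11 lower (median -0.08). Of all genes tested, 9.17% were higher and 13.8% lower after LPS, and 10.1% and 13.0% in PDL2-positive cells. Egr1 and Egr2, zinc finger factors induced with Fos by serum response factor, differed by -3.99 and -2.41 after LPS and by -4.45 and -2.55 in PDL2-positive cells. Klf4 differed by -3.46 and -3.28. Rgs2, a brake on G protein signals, had the lowest LPS difference of the list, -4.23, and differed by -1.26 in PDL2-positive cells. Like Fos, these 4 were highest in PDL2-negative untreated cells. So were Klf2 (-1.80 and -1.43), Ier2 (-0.61 and -1.68) and Myc (-0.92 and -1.71). Ier3 (-0.27 and -2.04) and Btg2 (-1.68 and -0.12) had the same highest array, but by less than the technical SD on 1 side. That side was LPS for Ier3 and PDL2-positive cells for Btg2, where another Btg2 probe set gave 0.24.

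The remaining members of that list did not follow Fos. Dusp1, a phosphatase gene that ends MAP kinase signals, had signals of 12.28, 13.11 and 12.22, and Zfp36, which encodes the mRNA decay factor tristetraprolin, 11.58, 12.60 and 12.45. Nr4a3, an orphan nuclear receptor gene, was higher by 3.79 after LPS and 5.05 in PDL2-positive cells, although another of its probe sets gave 0.00 and 0.07. The heat shock genes Hspa1a and Hspa1b were higher by at least 4.07 and 5.40 after LPS, and their near-identical sequences may share probes. Against LPS-treated cells the list ran from Nr4a2 at 3.70 to the cytokine signal inhibitor gene Socs3 at -5.48. Whether handling, sorting or time since the last stimulus moved these genes was not tested.

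The BATF partner genes Irf4 and Irf8 were higher in PDL2-positive cells. Irf4 had signals of 8.18, 7.44 and 11.56 and Irf8 of 10.95, 11.33 and 13.35, with PDL2 differences of 3.38 and 2.40. In the list of BATF partners and of genes tied to BATF3-dependent DCs, 7 of 14 were higher in PDL2-positive cells and 4 lower (median 1.19). The higher genes included Nfil3, Zbtb46 (2.37), a factor of conventional DCs, and Il12b (at least 7.10). The lower ones were Wdfy4 (-4.14), which is needed for cross-presentation, Cadm1 (-2.00), Itgae (-1.84) and Tlr3 (-1.26 or below). Other probe sets of Cadm1 and Itgae gave -0.68 and -0.78, under 2-fold. Cd8a differed by 0.02 and Snx22 by 0.00, from signals close to the floor on every array. These were 6.13, 6.23 and 6.14 for Cd8a and 5.83, 5.90 and 5.84 for Snx22. Xcr1, a chemokine receptor gene of type 1 conventional DCs, was below the floor on all 3 arrays, at 4.52, 4.55 and 4.46. After LPS 5 of 15 were higher and 3 lower (median 0.38), with the chemokine gene Cxcl9 higher by at least 5.82, Tlr3 by 3.33 and Itgae lowest at -1.77. Against LPS-treated cells Irf4 differed by 4.12 and Cxcl9 by -5.82 or below.

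Genes known as AP-1 targets in other cells were compared on the same arrays. After LPS 11 of 20 were higher and 2 lower (median 1.75), among them Ptgs2 (6.53), which encodes an inducible prostaglandin synthase, and the collagenase gene Mmp13 (3.24). Il6 was higher by at least 8.21, and the cyclin gene Ccnd1 was the lowest at -2.04. In PDL2-positive cells 2 of 19 were higher and 11 lower (median -1.69). The higher genes were the connexin gene Gja1 (at least 2.12), of which another probe set gave 0.00, and Il6 (at least 1.99). Plaur, the urokinase receptor gene, differed by -4.90 and the elastase gene Mmp12 by -4.44. Against LPS-treated cells 15 of 20 were lower and 1 higher (median -4.12), with Vegfa at 1.05 and Ptgs2 at -8.29 or below. Many of these genes are also expressed by macrophages and induced through NF-kB, so the list does not measure AP-1 alone.

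Genes that ATF3 is known to restrain were compared too. All 8 above the floor were higher after LPS (median 5.04), with Cxcl1 at 2.88 and Il6 at no less than 8.21. In PDL2-positive cells 3 of 6 were higher and 2 lower (median 1.15), with Ch25h at 2.69, Il12b at no less than 7.10 and Ccl4 at -1.92. Cxcl1 was under 2-fold there at 0.31, although another of its probe sets gave -2.05. Against LPS-treated cells 1 of 8 was higher, Il12b (1.53), and 7 were lower (median -4.69). Il6, Tnf and Nos2 stand in this list and in that of AP-1 targets. Stress genes that share control with ATF3 had medians of 0.09 after LPS (4 of 11 higher, 1 lower) and 0.29 in PDL2-positive cells (5 of 11 higher, 0 lower). Slc7a11, a cystine transporter gene, was higher by 3.93 after LPS, and Ppp1r15a, which ends the integrated stress response, by 2.42 in PDL2-positive cells. Ddit3 differed by 0.09 and 0.04, although another of its probe sets gave -0.52 and -0.70. Vegfa was the lowest of that list in both comparisons, at -2.00 and -0.95, although another of its probe sets gave -0.54 and -0.31. In all of these lists, a gene at the floor on 1 array counts in the median at its bound.

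**Figure D4:**
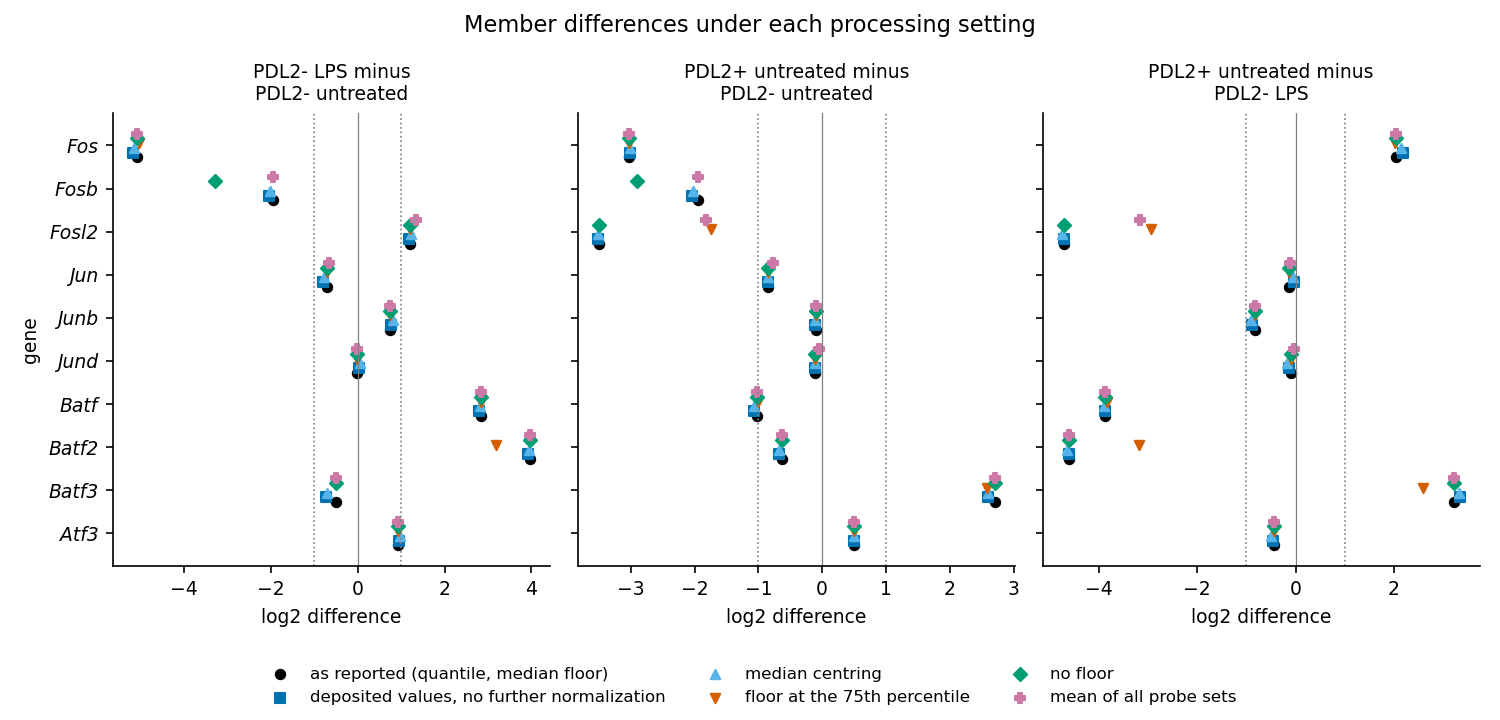
Log2 difference (horizontal axis) of each gene (vertical axis) in the 3 comparisons under 6 settings of normalization, floor and probe set choice; dotted lines mark 2-fold. Symbols of a gene mostly overlap, and the wide rows are Fosb with no floor, Fosl2 with the higher floor or averaged probe sets, and Batf2 and Batf3 with the higher floor.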

How the data were processed

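The deposited table holds the authors' log2 value of each probe set on each array, judged from the range of the values. For array preprocessing, the tools and settings are not given in the sources used here. Members and gene lists were chosen with earlier results of these data known. After 13 control probe sets were left out, 38533 remained. Quartiles of the arrays differed by up to 0.22, over the limit of 0.1 set for this, so values were quantile-normalized. Probe sets with 1 gene in the annotation (33974) were used, and 449 with several genes were not. For 33787 of those used, the gene identifier was found in RefSeq and the RefSeq symbol was taken. A gene entered a comparison if above the floor on at least 1 of its 2 arrays. Named genes are all members, the 2 nearest in pattern to each member past 2-fold, and genes of the lists: their extremes, with further members named as examples after their values were seen. Protein sequences were not used here. Simulated arrays checked the scripts (Python 3.11.15, numpy 2.4.6, pandas 2.3.3). The number of arrays limits the precision. Alternatives covered normalization, floor, probe set choice and fold.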

Additional observations from a re-analysis of the deposited data

How the results depend on the processing

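No paired analysis was possible because each group has 1 array. With the floor at the 75th percentile, 7.80, the count of lower genes was 1 after LPS and 2 in PDL2-positive cells, and 3 genes in all passed 2-fold in the latter comparison, since Fosb then lies below the floor on every array and Batf just misses the rule (-0.999). The background at that floor was 11.1% higher and 13.6% lower of 6702 genes after LPS. For PDL2-positive against PDL2-negative untreated cells it was 11.6% and 14.0% of 6745 genes. At 1.5-fold, 8 genes passed after LPS, 5 of them higher, against a background of 15.1% higher and 24.6% lower of 11000 genes. Of 141 member differences recomputed under other normalization, floor or probe set settings, 132 moved by less than the technical SD, 9 moved by more, 0 changed sign after being past 2-fold, and 140 kept their side of 2-fold. The PDL2 difference of Fosl2 was -1.81 with averaged probe sets and -1.74 with the higher floor. The median of all genes tested after LPS was 0.02, or -0.09 with the deposited values. Of the 12 genes nearest in pattern, 8 were the same with deposited values and 3 with the higher floor. Of 789 list counts and medians recomputed, 79 moved past 1.5 times or the technical SD. The count of Pdcd1lg2 as higher after LPS was 0 with deposited or median-centred values.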
